A study of Mus musculus with 12 samples.

Results

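The genes described here are 10 genes of the amino-acid stress response that the transcription factor ATF4 drives: Atf4 itself, Ddit3, Trib3, Asns, Chac1, Psat1, Slc7a11, Slc6a9, Aldh1l2 and Mthfd2. They were taken by symbol from a table of 52962 mouse gene identifiers, and all 10 were among the 15598 genes whose level was high enough to be tested (above 1 CPM, a count in proportion to the library's total, in at least 3 of 12 samples). The list was written with earlier results of these data in view, and Trib3, Slc6a9 and Aldh1l2 were selected on their lower level in non-β-cells at 8 weeks. For that reason the change of the members in non-β-cells, its difference from the change in β-cells, and the difference between the fractions, all of which contain those non-β values, are given as descriptions with no test. The change in β-cells uses other samples and was tested. Whether earlier results in β-cells also shaped the list is not recorded, so this test is not independent of the choice of genes.

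RNA was sequenced from sorted islet cells of female NOD mice, an inbred strain that develops autoimmune diabetes as immune cells enter its islets. The 12 samples form 4 groups of 3 replicates: the β and the non-β fraction, each taken at 4 and at 8 weeks of age, with no genotype or treatment that sets the groups apart. Per the study's methods the islets were cultured overnight and dispersed with trypsin before the sort. Cells were then gated on forward scatter, sorted by their own fluorescence and depleted of CD45-positive leukocytes, so every value refers to cultured, dissociated cells, and the study describes each replicate as a pool of mice, which the sample labels do not state. The p-values therefore measure the spread between these samples.

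ATF4 is the main effector of the integrated stress response. Kinases that sense missing amino acids, unfolded protein in the endoplasmic reticulum (ER), double-stranded RNA or lack of haem phosphorylate the translation factor eIF2α, which lowers general protein synthesis while the Atf4 message is translated more, so that ATF4 activity can change with little change of its mRNA. ATF4, often paired with C/EBP proteins, then raises genes for amino-acid synthesis and uptake, tRNA charging, one-carbon metabolism and its own feedback. In β-cells this pathway is known for its role in the response to a heavy load of proinsulin folding.

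The C/EBP-ATF composite element is the DNA site through which many of these genes are reached, and its letters are shown here for the members whose promoters hold them. The RefSeq promoter table (GRCm38.p6) gives 250 bases before to 50 bases after each annotated start, and 9 of the 10 members had such a window; Aldh1l2 had none. The letters TGATGNAA, or TTNCATCA on the opposite strand, were found in the windows of Trib3, Asns, Chac1 and Slc7a11, which is 44.4% of the members with a window. Of all 27025 genes with a window, 4.51% held a match, as did 3.97% of all 32851 windows. Each stretch below is printed along the strand of its gene with the matched letters in capitals.
Trib3, chr2:152344028-152344057 (minus strand): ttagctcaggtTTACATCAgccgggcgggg
Asns, chr6:7693214-7693243 (minus strand): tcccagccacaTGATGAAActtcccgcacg
Chac1, chr2:119351023-119351082 (plus strand): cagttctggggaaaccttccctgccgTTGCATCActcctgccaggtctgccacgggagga
Slc7a11, chr3:50443637-50443696 (minus strand): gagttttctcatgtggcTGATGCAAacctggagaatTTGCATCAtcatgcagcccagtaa
The matches of Trib3 and Chac1 lay in the TTNCATCA direction, that of Asns in the TGATGNAA direction, and Slc7a11 had 1 match in each direction. Counted from the RefSeq start, the match began at base 14 after it in Trib3, and 23 bases before it in Asns (position -23), at -193 in Chac1, and at -66 and -47 in Slc7a11. A match is a description of the letters in this window and does not show that a protein was bound there.

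The samples held 13755106 to 27040652 estimated counts each. Levels below are CPM after TMM scaling (the trimmed mean of M-values), and each log2 difference, its standard error (SE) and its adjusted p come from 1 limma-voom model of all 12 samples with Benjamini-Hochberg adjustment over the 15598 genes. On the third principal component (7.49% of the variance), replicate 3 of the 4-week β-cells stood at 62.9, against 6.7 and 5.9 for replicates 1 and 2. In the 4-week non-β-cells, replicates 1, 2 and 3 stood at -17.5, -56.4 and 32.7 there. On the second component (14.4%) replicate 2 of that group was apart, at 78 against 47.7 and 48.3. Values that rest on replicate 3 of a 4-week group are given with and without it. In these bulk samples, fewer cells of a type and less RNA per cell cannot be told apart.

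Of the 10 members, 9 were lower at 8 than at 4 weeks in non-β-cells with no overlap between the ages, and 8 were so in β-cells. Over all tested genes, 13.8% were lower without overlap in non-β-cells and 19.6% in β-cells. The median log2 difference of the members was -1.71 in non-β-cells and -0.60 in β-cells, where the medians of all tested genes were 0.01 and 0.02. The plot of the members by sample gives every value.

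**Figure D1:**
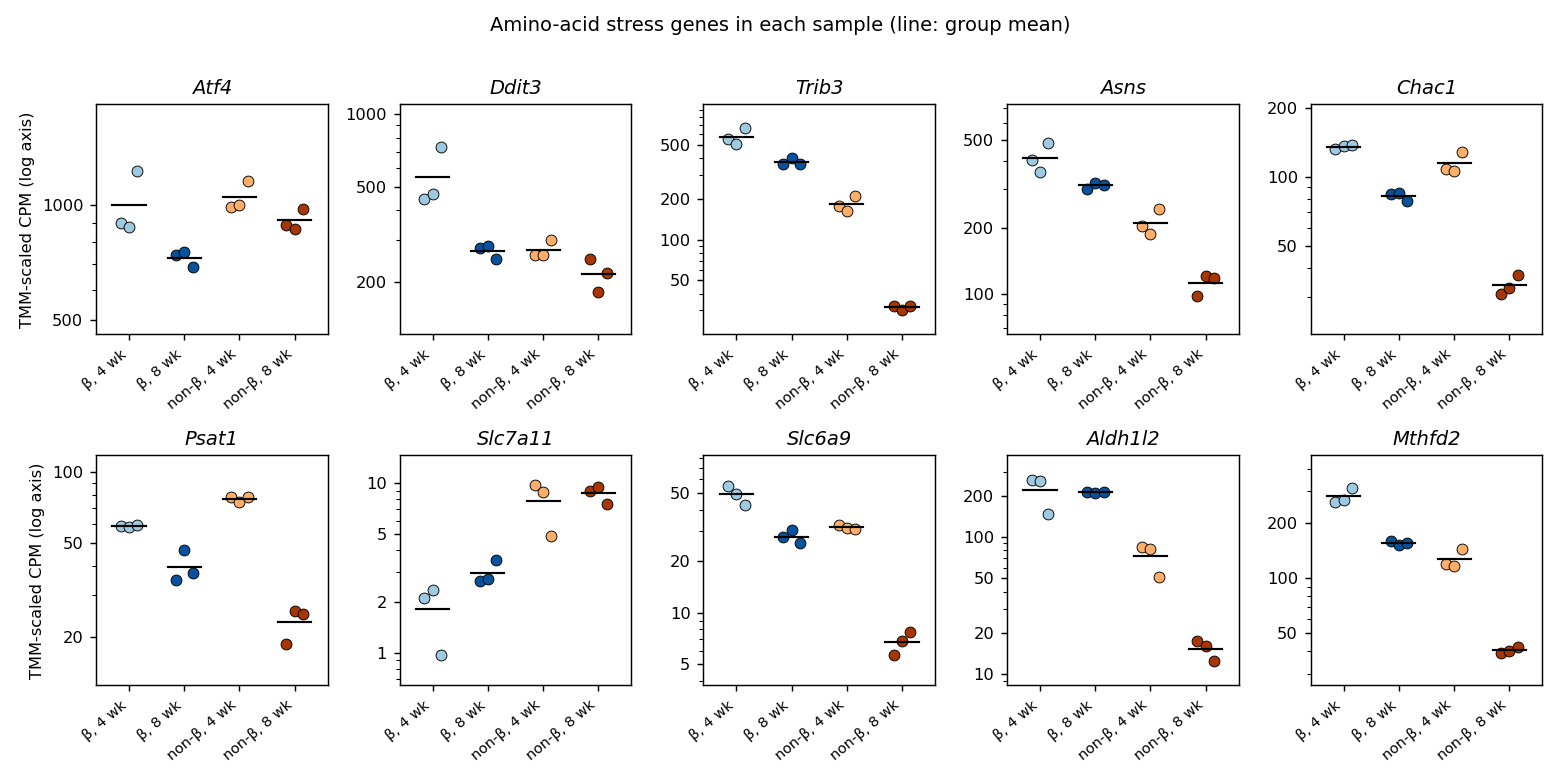
TMM-scaled CPM (log axis, a different range in each panel) of the 10 members in the 12 samples. Points are single samples, horizontal lines are group means, blue marks β-cells and orange to brown marks non-β-cells. In non-β-cells Trib3, Chac1, Psat1, Slc6a9, Aldh1l2 and Mthfd2 had 8-week means at 17.4% to 31.8% of their 4-week means, whereas Atf4 was at 87.0% and Slc7a11 at 111%.

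The regulators come first. Atf4 encodes the transcription factor itself and was the member with the highest level per length in every group, at 308 to 445 CPM per kilobase of annotated exon. In β-cells it measured 899, 880 and 1228 CPM at 4 weeks and 739, 753 and 688 CPM at 8 weeks. The 8-week samples were all lower, and Atf4 fell by 0.45 on the log2 scale (SE 0.13, adjusted p 0.0287). That call is a weak one: without replicate 3 of the 4-week β-cells, the highest sample, the difference was -0.29 with an adjusted p of 0.0550, and it also missed the threshold without any 1 of the 8-week β replicates (adjusted p 0.0617, 0.0664 and 0.108 without replicates 1, 2 and 3) and in a model of the β samples alone (0.0672). In non-β-cells Atf4 measured 988, 1000 and 1160 CPM at 4 weeks and 889, 869 and 981 CPM at 8 weeks, a log2 difference of -0.20 (SE 0.13). The lowest 4-week and highest 8-week non-β samples were nearly equal.

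Ddit3 encodes CHOP, the transcription factor that links prolonged stress to cell death. It measured 445, 466 and 733 CPM in the 4-week β samples and 277, 283 and 251 CPM in the 8-week ones, and it fell by 0.98 (SE 0.17, adjusted p 0.00185). This was the largest fall among the members in β-cells, a rank that rests on replicate 3 of the 4-week group: without it the log2 difference of Ddit3 was -0.76 (adjusted p 0.00122), against -0.90 for Slc6a9 and -0.77 for Mthfd2. In non-β-cells the values were 260, 259 and 300 CPM at 4 weeks and 250, 182 and 219 CPM at 8 weeks, with a log2 difference of -0.34 (SE 0.17). Ddit3 and Atf4 were the members that were lower at 8 weeks in both fractions with the larger difference in β-cells. Its locus overlaps Mars and Gm4189 on the opposite strand, and although the study's methods describe the reads as reversely stranded, the strand setting of the counting is not given in the sources used here. A further identifier named Ddit3, ENSMUSG00000116429, had 0 counts in all 12 samples and was not tested.

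Trib3 encodes a pseudokinase that binds AKT and feeds back on ATF4. In non-β-cells it measured 176, 164 and 208 CPM at 4 weeks and 32.5, 30.03 and 32.5 CPM at 8 weeks. The 8-week mean was 17.4% of the 4-week mean, the lowest such share among the members, and the log2 difference was -2.51 (SE 0.13). In β-cells the values were 553, 504 and 660 CPM at 4 weeks and 358, 401 and 363 CPM at 8 weeks, a fall of 0.61 (SE 0.12, adjusted p 0.00386). All 4 groups were separate, both β groups above both non-β groups and 4 above 8 weeks within each fraction.

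The enzymes of amino-acid synthesis were next. Asns encodes asparagine synthetase. It measured 404, 359 and 484 CPM in the 4-week β samples and 299, 320 and 314 CPM in the 8-week ones. It fell by 0.41 (SE 0.13, adjusted p 0.0468), a call just inside the threshold. The model of the β samples alone gave an adjusted p of 0.0609, and 8 of the 12 fits that each left out 1 sample gave adjusted p between 0.0534 and 0.121; without replicate 3 of the 4-week β-cells the log2 difference was -0.29 (adjusted p 0.118). In non-β-cells Asns measured 202, 187 and 242 CPM at 4 weeks and 98.04, 120 and 118 CPM at 8 weeks, a log2 difference of -0.91 (SE 0.13).

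Psat1 encodes the aminotransferase of serine synthesis. It measured 78.1, 74.6 and 78.3 CPM in the 4-week non-β samples and 18.7, 25.6 and 24.9 CPM in the 8-week ones, a log2 difference of -1.78 (SE 0.14). In β-cells it measured 58.8, 58.7 and 59.8 CPM at 4 weeks and 34.9, 46.5 and 37.4 CPM at 8 weeks, and it fell by 0.58 (SE 0.13, adjusted p 0.00729). Psat1 was the only member besides Atf4 and Slc7a11 whose 4-week mean was higher in non-β-cells than in β-cells, and at 8 weeks its order had turned. The ratio of the β to the non-β mean was 0.767 at 4 weeks and 1.72 at 8 weeks.

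Chac1 encodes an enzyme that degrades glutathione and, like Trib3, is a target of ATF4. It measured 108, 106 and 128 CPM in the 4-week non-β samples and 30.8, 32.8 and 37.2 CPM in the 8-week ones, with a log2 difference of -1.77 (SE 0.11). In β-cells the 4-week values were 132, 136 and 138 CPM and the 8-week values 83.9, 84.8 and 78.6 CPM. Chac1 fell there by 0.71 (SE 0.10, adjusted p 0.000415), with replicates that differed by little in each group (SD 2.85 and 3.33 CPM).

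The transporters did not move together. Slc6a9, the glycine transporter GLYT1, measured 32.6, 31.5 and 30.9 CPM in the 4-week non-β samples and 5.67, 6.87 and 7.76 CPM in the 8-week ones, a log2 difference of -2.25 (SE 0.19). In β-cells it went from 55.2, 49.2 and 42.7 CPM at 4 weeks to 27.7, 30.3 and 25.4 CPM at 8 weeks, a fall of 0.81 (SE 0.12, adjusted p 0.000653). Slc6a9 overlaps B4galt2 and Ccdc24 on the opposite strand.

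Slc7a11, the cystine and glutamate exchanger xCT, was the member with the lowest level and the only one that was not lower at 8 weeks in either fraction. It measured 9.68, 8.86 and 4.88 CPM in the 4-week non-β samples and 9.00, 9.49 and 7.55 CPM in the 8-week ones, with overlapping groups and a log2 difference of 0.17 (SE 0.26). In β-cells it measured 2.09, 2.34 and 0.963 CPM at 4 weeks and 2.64, 2.71 and 3.53 CPM at 8 weeks. The β groups did not overlap, but the log2 difference of 0.79 (SE 0.47) did not pass the test (adjusted p 0.277). Slc7a11 rests on as few as 21.1 estimated counts in a sample, its locus holds several pseudogenes, and replicate 3 was the lowest 4-week sample in both fractions. With both 4-week samples numbered 3 left out, the log2 differences were -0.11 in non-β-cells and 0.40 in β-cells.

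The mitochondrial one-carbon enzymes act on serine-derived carbon that is carried by folate. Aldh1l2, the mitochondrial 10-formyltetrahydrofolate dehydrogenase, measured 84.9, 82.2 and 51.3 CPM in the 4-week non-β samples and 17.6, 16.1 and 12.5 CPM in the 8-week ones, a log2 difference of -2.22 (SE 0.29). In β-cells it measured 263, 256 and 147 CPM at 4 weeks and 212, 210 and 215 CPM at 8 weeks, so that the 4-week group spanned the 8-week group and the log2 difference was -0.02 (SE 0.22, adjusted p 0.970). This value depends on the replicates numbered 3: with both of them left out of the 4-week groups, Aldh1l2 fell in β-cells by 0.29 (adjusted p 0.0190). Leaving out only that of the β-cells gave -0.29 with an adjusted p of 0.259. Aldh1l2 overlaps D10Wsu102e on the opposite strand.

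Mthfd2 encodes the mitochondrial methylenetetrahydrofolate dehydrogenase. It measured 119, 117 and 145 CPM in the 4-week non-β samples and 38.8, 40.04 and 42.2 CPM in the 8-week ones, a log2 difference of -1.65 (SE 0.12). In β-cells the values were 262, 268 and 315 CPM at 4 weeks and 159, 152 and 156 CPM at 8 weeks, and Mthfd2 fell by 0.85 (SE 0.11, adjusted p 0.000161). The 4 groups of Mthfd2 were separate and in the same order as those of Trib3.

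**Figure D2:**
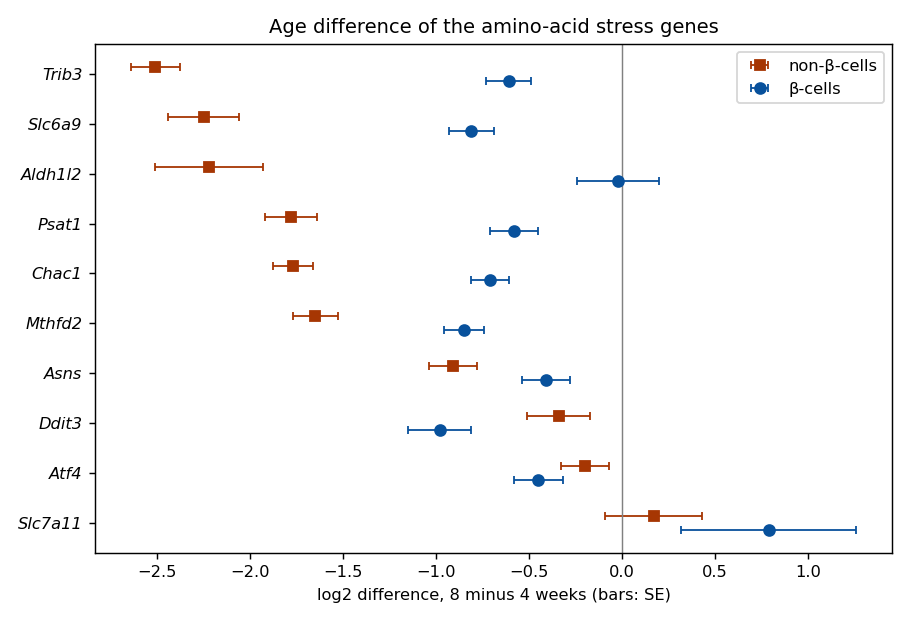
Log2 difference of 8 minus 4 weeks for each member in non-β-cells (squares) and β-cells (circles), with SE bars from the limma-voom model. Members are ordered by their value in non-β-cells; Trib3, Slc6a9 and Aldh1l2 are lowest there at -2.51, -2.25 and -2.22, while Ddit3 and Mthfd2 are lowest in β-cells at -0.98 and -0.85.

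By the limma-voom test, 8 of the 10 members were lower at 8 weeks in β-cells (Atf4, Ddit3, Trib3, Asns, Chac1, Psat1, Slc6a9 and Mthfd2) and Slc7a11 and Aldh1l2 did not pass it. Of all tested genes, 9.35% were lower and 8.59% higher in this comparison. No member changed by 2-fold in β-cells by limma (log2 difference of at least 1 in size). All 8 had an unadjusted p under 0.05, and edgeR and DESeq2 each placed 1 member past 2-fold. With both 4-week samples numbered 3 left out 9 members passed, the added one being Aldh1l2, and 6 passed in the model of the β samples alone. Sums of cell-type markers also differed with age, and in them the share of a cell type and its RNA per cell cannot be told apart. Summed over Gcg, Irx1 and Irx2, α-cell markers were at 5415 to 9053 CPM in the younger β-cells and at 1418 to 2449 CPM in the older, against 103206 to 132860 CPM in the non-β samples, and the sum over β-cell markers (Ins1, Ins2, Mafa, Nkx6-1, Slc2a2 and Ucn3) was 32027 to 58410 CPM at the younger and 87600 to 92366 CPM at the older age in the β fraction. In the same fraction acinar markers (Cpa1, Prss2, Cela1 and Amy2a5) summed to 36.9 to 85.7 CPM at 4 weeks and 185 to 351 CPM at 8 weeks, mesenchymal markers (Col1a1, Col3a1, Pdgfrb and Dcn) to 2.50 to 11.0 CPM and 17.8 to 38.9 CPM, and leukocyte markers to 50.9 to 53.3 CPM and 69.0 to 77.4 CPM, while Ppy went from 147 to 367 CPM to 58.1 to 69.3 CPM. Duct markers were at 756 to 1029 CPM and 725 to 791 CPM, endothelial markers at 1.98 to 8.95 CPM and 5.97 to 7.05 CPM, and δ-cell markers at 341 to 780 CPM and 765 to 852 CPM. The leukocyte sum is over 6 genes, of which only 2 passed the filter on level. The part of these marker shifts in the members' fall was not tested.

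In non-β-cells the age difference of the members can only be described. Of all tested genes, 4.8% were lower and 11.6% higher at 8 weeks there. Endothelial markers (Pecam1, Cdh5, Kdr and Plvap) summed to 27.9 to 58.8 CPM at 4 weeks and 232 to 668 CPM at 8 weeks in this fraction, mesenchymal markers to 74.5 to 234 CPM and 488 to 781 CPM, and the α-cell sum was 103206 to 117179 CPM and 111105 to 132860 CPM. Acinar markers went from 32.7 to 61.5 CPM to 102 to 364 CPM, duct markers (Krt19, Krt7 and Sox9) from 236 to 323 CPM to 325 to 401 CPM, and δ-cell markers (Sst and Hhex) from 4503 to 6920 CPM to 7631 to 10909 CPM. Ppy was at 5554 to 6944 CPM and 4018 to 5389 CPM. Leukocyte markers (Ptprc, Cd3e, Cd79a, Cd68, Lyz2 and Itgam) summed to 7.78 to 12.3 CPM at 4 weeks and 13.98 to 19.8 CPM at 8 weeks, without overlap. Only 2 of these 6 genes passed the filter on level, and Itgam was under 0.5 CPM throughout. β-cell markers summed to 651 to 1005 CPM and 2115 to 2516 CPM here. Their part in the members' values was not tested.

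Read as the β minus the non-β age difference, 8 of the 10 members had a positive value and Atf4 (-0.25, SE 0.18) and Ddit3 (-0.64, SE 0.24) a negative one. The largest were Aldh1l2 at 2.20, Trib3 at 1.91, Slc6a9 at 1.44, Psat1 at 1.19 and Chac1 at 1.05, followed by Mthfd2 at 0.80, Slc7a11 at 0.62 and Asns at 0.50. Without replicate 3 of the 4-week β-cells the values of Atf4 and Ddit3 were -0.09 and -0.42. In the same fit the age difference in β-cells was -0.29 for Aldh1l2 and -0.50 for Trib3, in place of -0.02 and -0.61. The members' median was 0.93, against 0.00 over all genes, of which 1.8% were higher and 3.33% lower by this difference.

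Averaged over the ages, the log2 difference of β minus non-β was positive for 8 members and negative for Atf4 and Slc7a11, with a median of 1.00 against 0.00 over all tested genes. It contains the 8-week non-β values on which Trib3, Slc6a9 and Aldh1l2 were selected and is therefore given without a test. It stood at 2.69 (SE 0.18) for Aldh1l2, 2.60 (SE 0.09) for Trib3, 1.55 for Mthfd2, 1.34 for Slc6a9, 1.23 for Asns, 0.77 for Chac1, 0.65 for Ddit3 and 0.21 for Psat1.

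Slc7a11 stood at -1.85 in the same comparison, with β samples from 0.963 to 3.53 CPM and non-β samples from 4.88 to 9.68 CPM. Atf4 stood at -0.20 (SE 0.09). The average over ages hides how far apart the fractions were at each age: the ratio of the β to the non-β mean was 3.14 at 4 weeks and 11.8 at 8 weeks for Trib3, 3.05 and 13.8 for Aldh1l2, 1.55 and 4.11 for Slc6a9, and 1.18 and 2.45 for Chac1.

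Across the 12 samples most members followed 1 shared profile. The mean of the members' standardised log2 CPM was 0.63 to 0.87 in β-cells at 4 weeks, 0.24 to 0.38 in non-β-cells at 4 weeks, -0.04 to 0.10 in β-cells at 8 weeks and -1.10 to -0.96 in non-β-cells at 8 weeks. Chac1, Slc6a9, Mthfd2, Trib3 and Asns had a Pearson r of 0.90 to 0.99 with this mean, which includes them, Psat1, Aldh1l2 and Ddit3 had 0.79 to 0.88, Atf4 had 0.28 and Slc7a11 -0.69. Of 10166 other genes with a mean log2 CPM of at least 3, the 5 most like the profile were Ifi30 (r 0.986), Grn (0.984), Phgdh (0.979), Slc1a4 (0.979) and Cry1 (0.979). Phgdh, the first enzyme of serine synthesis, and Slc1a4, a transporter of alanine, serine and cysteine, belong to lists of related genes described below, while Ifi30 and Grn encode lysosomal proteins and Cry1 a circadian repressor. Grn measured 274 ± 16.9 CPM in β-cells at 4 weeks, 178 ± 12.0 at 8 weeks, 213 ± 30.2 in non-β-cells at 4 weeks and 113 ± 4.50 at 8 weeks (SD, n = 3 each). The 12 points of such a correlation share 4 group means, and it is given as a description.

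Genes of the same pathway that are not members were tested in both fractions, in 8 lists by function. These lists were also chosen with earlier results of these data known, so their tests are not independent of that choice. The plot of the related lists shows that the lists of amino-acid handling lay mostly below 0 in non-β-cells, whereas the ER chaperones and the eIF2 list lay around it. This order did not hold in β-cells. List medians there were -0.31 for the transporters, -0.17 for the synthetases and -0.06 for the serine, proline and one-carbon enzymes. The eIF2 list was at -0.26 and the ER chaperones at -0.07.

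**Figure D3:**
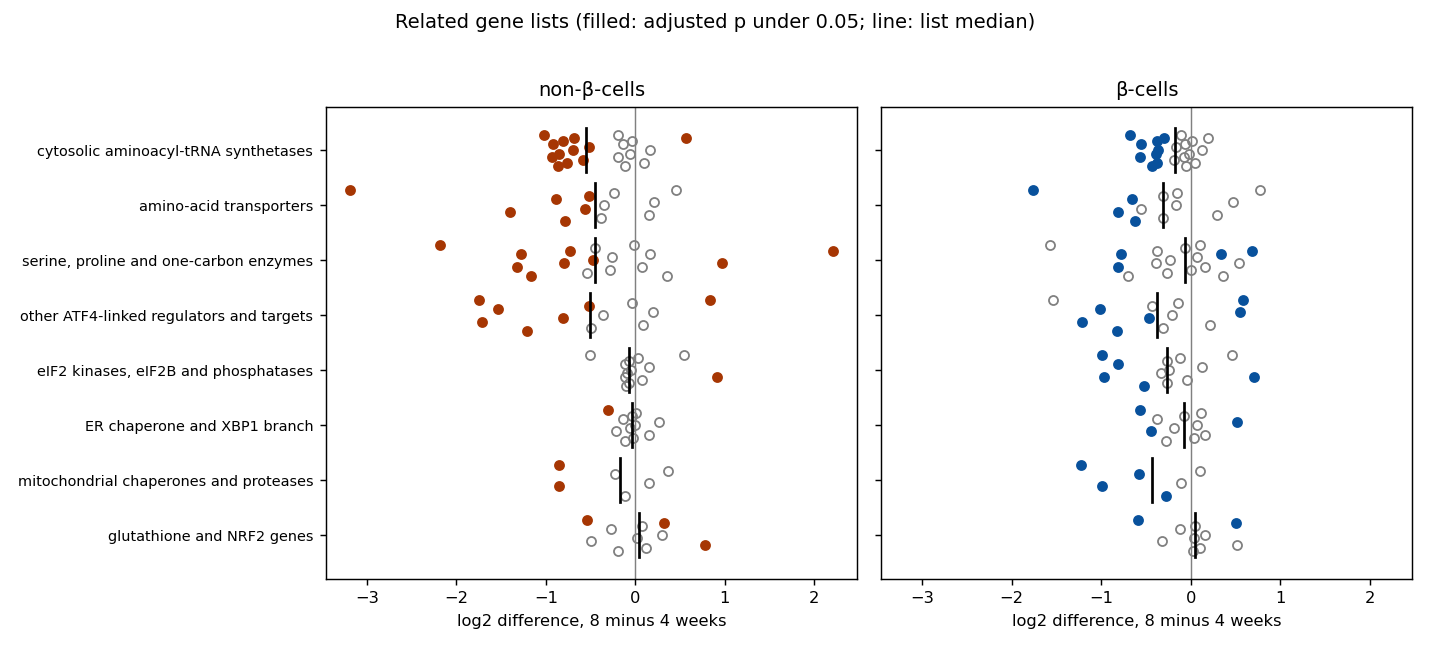
Log2 difference of 8 minus 4 weeks for each gene of 8 related lists in non-β-cells (left) and β-cells (right). Filled points passed an adjusted p under 0.05, open points did not, and black lines are list medians; the synthetase median was -0.55 in non-β-cells and -0.17 in β-cells, and that of the ER chaperones -0.04 and -0.07. Vertical scatter within a list has no meaning.

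The cytosolic aminoacyl-tRNA synthetases, which load each amino acid on its tRNA, gave the highest count. In non-β-cells 11 of 20 fell (Aars, Cars, Eprs, Gars, Iars, Lars, Mars, Nars, Sars, Tars and Yars), Qars rose and 8 did not pass. Aars, the alanine enzyme, fell by 1.02 (SE 0.10, adjusted p 1.44e-05), from 453 ± 47.9 to 222 ± 14.9 CPM. Eprs, the glutamate and proline enzyme, fell by 0.93 (adjusted p 2.31e-05) and Sars, the serine enzyme, by 0.92 (adjusted p 0.000331).

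In β-cells 9 of the 20 synthetases fell, led by Mars (methionine) at -0.68 (adjusted p 0.000654), Yars (tyrosine) at -0.56 (adjusted p 0.00360) and Iars (isoleucine) at -0.55 (adjusted p 0.0121). All 9 were among the 11 of the non-β-cells. Aars and Lars did not pass in β-cells, at -0.11 and -0.02. Mars overlaps the member Ddit3 on the opposite strand, and the strand setting of the counting is not given in the sources used here. The difference between the fractions passed the test for 3 genes, Aars (0.92, adjusted p 0.00203), Eprs (0.63, adjusted p 0.0172) and Lars (0.57, adjusted p 0.0160). Eprs lost that call when the trend of level on transcript length was removed (adjusted p 0.165). Averaged over ages, 18 of the 20 synthetases were higher in β-cells, with a list median of 0.85; of all tested genes 31% were higher and 31.5% lower in that comparison. Counts with both 4-week samples numbered 3 left out were 11 and 9 lower, as before. Some β-cell calls were weak by limma-voom. That of Eprs (adjusted p 0.0433) was lost in 10 alternative fits and kept in 14. That of Sars (adjusted p 0.0397) was lost in 6 and kept in 18.

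**Figure D4:**
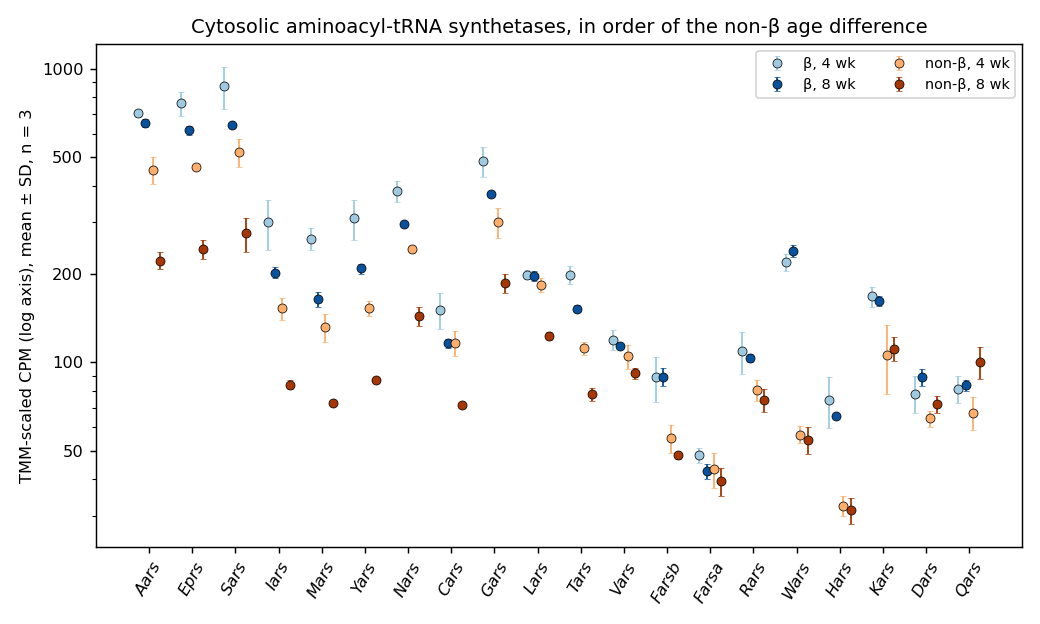
TMM-scaled CPM (log axis) of the 20 cytosolic aminoacyl-tRNA synthetases as mean ± SD of 3 replicates in each of the 4 groups, ordered by the age difference in non-β-cells. From Aars to Tars the non-β mean at 8 weeks lies below that at 4 weeks (for Aars 222 against 453 CPM), whereas from Vars to Dars the ages lie close together.

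Of 12 amino-acid transporters tested, 6 fell in non-β-cells and 4 in β-cells, and the others did not pass. Slc7a3, a carrier of arginine and lysine, fell by 3.19 in non-β-cells (SE 0.42, adjusted p 0.000165), from 12.9 ± 1.65 to 1.36 ± 0.209 CPM, the largest fall in any related list. In β-cells it fell by 1.76 (adjusted p 0.000229). Slc1a4 fell by 1.40 in non-β-cells and 0.66 in β-cells, and Slc38a7, a lysosomal glutamine and asparagine carrier, by 0.89 and 0.62. Slc38a2, the stress-inducible transporter SNAT2, fell in β-cells, by 0.81 (adjusted p 0.0138), and was at 0.15 in non-β-cells (adjusted p 0.673). The fractions differed for Slc1a4 (0.74, adjusted p 0.0277) and Slc7a5, the light chain of LAT1 (0.64, adjusted p 0.0379). With both 4-week samples numbered 3 left out, 8 and 5 transporters fell.

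Of 17 enzymes of serine, proline and one-carbon metabolism tested, 7 fell and 2 rose in non-β-cells. Phgdh fell by 2.18 (SE 0.25, adjusted p 5.36e-05), from 37.4 ± 7.05 to 8.00 ± 1.95 CPM, beside Psat1 and Psph (-1.28) of the same short pathway. Pycr1, which makes proline in mitochondria, fell by 1.32 (adjusted p 0.000159). Bcat1, the cytosolic branched-chain aminotransferase, rose by 2.21 (SE 0.41, adjusted p 0.00199), from 1.71 ± 0.862 to 7.78 ± 1.98 CPM.

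In β-cells 2 of these enzymes fell and 2 rose. Shmt2, the mitochondrial serine hydroxymethyltransferase, fell by 0.81 (adjusted p 0.000297) and Phgdh by 0.78 (adjusted p 0.00696). Cbs, of transsulfuration, rose by 0.69 (adjusted p 0.0287), a call that edgeR and DESeq2 did not make (0.0806 and 0.0515). Pycr1 stood at 0.00 in β-cells, and its difference between fractions was 1.32 (adjusted p 0.00253). Phgdh differed by 1.40 (adjusted p 0.0172) and Bcat1 by -2.91 (adjusted p 0.00476). With both 4-week samples numbered 3 left out, 8 enzymes fell in non-β-cells and 3 in β-cells.

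Among 12 other regulators and targets linked to ATF4, 6 fell and Ddit4 rose in non-β-cells. Gdf15, a secreted stress hormone, fell by 1.75 (SE 0.17, adjusted p 1.72e-05), Atf5 by 1.71 (adjusted p 1.25e-06) and Eif4ebp1, a brake on cap-dependent translation, by 1.53 (adjusted p 9.39e-06). In β-cells 4 fell and 2 rose, with Atf3 at -1.21 (adjusted p 0.000118), Eif4ebp1 at -1.01 (adjusted p 8.12e-05) and Gdf15 at -0.82 (adjusted p 0.00748). Atf5, the closest paralog of Atf4 in the list, went the opposite way in the fractions: it rose in β-cells by 0.59 (adjusted p 0.00486), from 621 ± 57.7 to 934 ± 92.6 CPM, and in non-β-cells went from 506 ± 41.3 to 155 ± 18.6 CPM. The difference was 2.30 (SE 0.17, adjusted p 1.07e-05). With both 4-week samples numbered 3 left out, 7 fell in non-β-cells and 4 in β-cells.

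Genes that act on eIF2 itself form a list of 13. In non-β-cells 12 of 13 did not pass and Ppp1r15a rose. Ppp1r15a encodes GADD34, the inducible phosphatase subunit that removes the eIF2α phosphate, and it rose by 0.91 (SE 0.13, adjusted p 0.000305), from 751 ± 75.2 to 1422 ± 231 CPM. In β-cells it fell by 0.81 (adjusted p 0.000960), from 705 ± 67.4 to 400 ± 27.3 CPM. The fractions differed by -1.73 (adjusted p 0.000153).

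Also in β-cells, Ppp1r15b, the constitutive phosphatase subunit, fell by 0.99 (adjusted p 0.000159), Eif2ak3, which encodes the ER stress kinase PERK, by 0.97 (adjusted p 0.000165), and Eif2b1 by 0.52, whereas Eif2ak2, which encodes the double-stranded RNA kinase PKR, rose by 0.71 (adjusted p 0.0198). Neither Ppp1r15b (0.15) nor Eif2ak3 (-0.07) passed in non-β-cells, and the fractions differed by -1.14 (adjusted p 0.00215) and -0.90 (adjusted p 0.00807). Eif2ak4, which encodes the amino-acid sensor GCN2, did not pass in either (-0.07 and 0.46). With both 4-week samples numbered 3 left out, 4 of the 13 fell in β-cells.

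Other stress branches were tested next. Of 11 ER chaperone genes, Pdia4 fell in non-β-cells by 0.30 (adjusted p 0.0452, lost in edgeR at 0.0570), and in β-cells Herpud1 fell by 0.57, Hspa5 by 0.44 and Hyou1 rose by 0.52. Hspa5, Hyou1 and Herpud1 differed between fractions by -0.70, 0.66 and -0.53. Of 6 mitochondrial chaperones and proteases, Hspa9 and Lonp1 fell in non-β-cells by 0.85 each, and 4 fell in β-cells, with Hspe1 at -1.23, Hspd1 at -0.99 and Clpp at -0.58. Hspe1 (-1.59), Hspd1 (-0.88) and Lonp1 (0.73) differed between fractions.

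Glutathione and antioxidant genes stand next to Chac1 and Slc7a11 in the use of cysteine. Of 10, Nqo1 rose by 0.78 and Txnrd1 by 0.32 in non-β-cells while Hmox1 fell by 0.54, and in β-cells Txnrd1 rose by 0.51 and Hmox1 fell by 0.59. The Nqo1 and Txnrd1 calls in non-β-cells were lost in the model of the non-β samples alone (adjusted p 0.0759 and 0.0728). By limma, edgeR and DESeq2 alike, 0 of the 10 differed between the fractions in their age change, with 3 at an unadjusted p under 0.05.

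The closest relatives of the members in the genome were tested as well. Trib1 rose in non-β-cells by 0.61 (adjusted p 0.000219) and in β-cells by 1.06 (adjusted p 1.09e-05), from 27.4 ± 0.793 to 57.4 ± 3.17 CPM in the latter. Trib2 fell in non-β-cells by 0.85 (adjusted p 0.0156, lost in edgeR at 0.111 and DESeq2 at 0.0719). Mthfd2l, Aldh1l1 and Chac2 did not pass in either fraction, at 0.16 and 0.54, 0.35 and 0.36, and -0.50 and 0.52 in non-β- and β-cells. Slc6a5 was too low to test, as were Fgf21 and Cth.

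The composite element letters were also counted in the lists. They were in the windows of 5 of 12 synthetases with a window (Aars, Gars, Iars, Tars and Yars, which fell in non-β-cells, as did Eprs and Sars with no match) and of 5 of 12 other ATF4-linked genes (Atf3, Fgf21, Jdp2, Nupr1 and Vldlr). Of the latter, Fgf21 was not tested and the others did not pass in non-β-cells, whereas Atf5, Cebpb, Cebpg, Gdf15 and Sesn2, whose windows held no match, fell there. Pycr1 and Got1 held them among 16 enzymes, Slc1a4 among 8 transporters and Herpud1 among 9 ER chaperones. No window of 11 genes of the eIF2 list held a match.

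The 4-week samples numbered 3 differed from the others by transcript length. Tested genes were split into 4 equal bins by annotated exon length. In β-cells the median gene of the shortest bin was 0.43 higher on the log2 scale in replicate 3 than in the mean of replicates 1 and 2, and that of the longest bin was at -0.38; in non-β-cells these values were 0.29 and -0.29. Among the members, replicate 3 was the lowest 4-week sample in both fractions for the longest, Slc7a11 (13922 bases), Aldh1l2 (7503 bases) and Slc6a9 (5141 bases), at -1.13, -0.82 and -0.29 in β-cells. For the 7 shorter members it was the highest, from 0.03 for Psat1 to 0.69 for Ddit3 in β-cells.

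**Figure D5:**
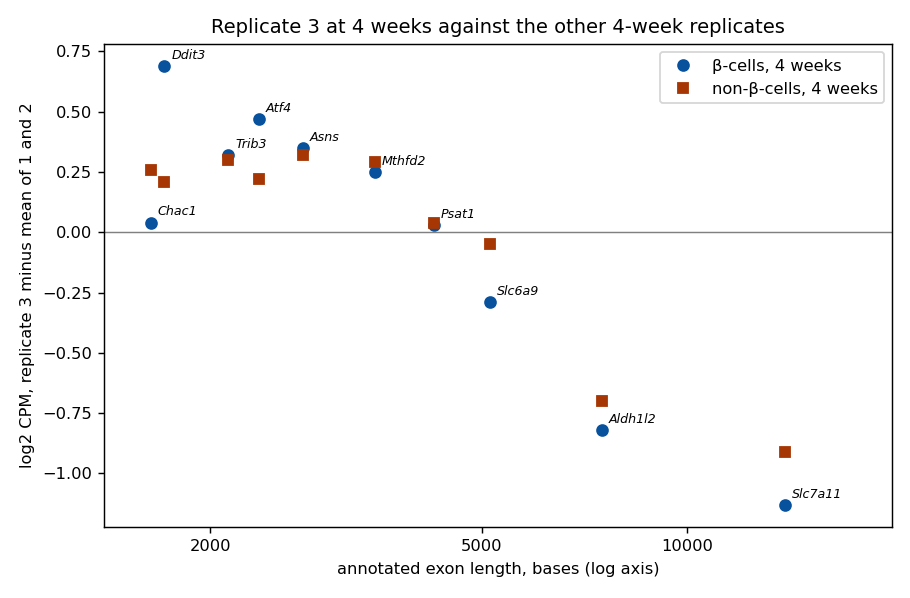
Log2 CPM of replicate 3 minus the mean of replicates 1 and 2 at 4 weeks, for each member in β-cells (circles) and non-β-cells (squares), against annotated exon length in bases (log axis). The highest values are 0.69 for Ddit3 in β-cells and 0.32 for Asns in non-β-cells, and the lowest are those of Slc7a11 (13922 bases) at -1.13 and -0.91; Chac1, the shortest member (1637 bases), is at 0.04 and 0.26. Labels are beside the β-cell points.

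With the length trend removed from every sample, the members' median was -1.77 in non-β-cells and -0.64 in β-cells, and 8 members still fell in β-cells.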

How the data were processed

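Reversely stranded single-end reads were trimmed with fastp, assigned to mouse transcripts of GRCm38 with kallisto and summed to genes by the authors, who deposited estimated counts per gene with no scaling or filter; from 14.0% to 19.3% of a sample's values were not whole. Tool versions and the strand setting of the counting are not given in the sources used here. GENCODE M21 gave a symbol to 52002 of 52962 identifiers, and exon lengths. The counts were rounded, genes with a CPM above 1 in at least 3 of 12 samples were kept (15598), and libraries were scaled by TMM in edgeR 4.0.16. All 4 groups entered 1 limma-voom model (limma 3.58.1, R 4.3.3) without covariates, with two-sided tests adjusted by Benjamini-Hochberg at 0.05, after the filter and test in the study's methods; for log2 CPM a prior count of 2 was added. The contrasts were 8 against 4 weeks in each fraction, their difference (β minus non-β), and β against non-β averaged over ages. Alternatives were DESeq2 1.42.0 (test, and size factors alone), the quasi-likelihood test of edgeR, total counts, other filters, quality weights, only the groups compared, hormone and mitochondrial genes removed, a replicate block, a 2-fold limit and each replicate left out. Both 4-week samples numbered 3 left out, and a length trend removed, were added after seeing the data. The models were tested on simulated counts. The members and lists were chosen with earlier results of these data known. The text names all members, up to 3 genes past the threshold with the largest change from each list in each age change and in the difference between fractions, all paralogs, and the 5 genes most like the members' mean profile; other list genes were named after their values were seen. Some α-cell markers are not reported here.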

Additional observations from a re-analysis of the deposited data

Results flagged for a closer look

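For 20 named genes of the related lists, the age change in β-cells differed from that in non-β-cells by the test of the difference itself (limma-voom, adjusted p under 0.05, β minus non-β on the log2 scale). Over all tested genes, 1.8% were higher and 3.33% lower by this difference. At most 3 genes were named from each list, so the 20 are not all that passed. Cebpg (0.76), Vldlr (0.91), Sesn2 (0.60), Gpt2 (0.94) and Aldh18a1 (0.54) were among the others that passed, all with a positive value. Members are not among the 20 named genes, since Trib3, Slc6a9 and Aldh1l2 were selected on their lower level in non-β-cells at 8 weeks. The related lists were also chosen with earlier results known, so their tests are not independent of that choice. Ppp1r15a (-1.73), Ppp1r15b (-1.14) and Eif2ak3 (-0.90), which act on eIF2α phosphorylation, were lower in β-cells relative to non-β-cells, as was Atf3 (-1.18). Atf5 (2.30), Gdf15 (0.93), Phgdh (1.40), Pycr1 (1.32), Slc1a4 (0.74), Slc7a5 (0.64), Aars (0.92), Eprs (0.63) and Lars (0.57) had the opposite sign, and Bcat1 stood at -2.91. Among chaperones and proteases the values were -0.70 for Hspa5, 0.66 for Hyou1, -0.53 for Herpud1, -1.59 for Hspe1, -0.88 for Hspd1 and 0.73 for Lonp1. Opposite called changes in the fractions were seen for Atf5 and Ppp1r15a. The difference of Gdf15 lost its call in 16 of 23 alternative fits, that of Herpud1 in 10, Slc1a4 in 9, Slc7a5 in 8, Hspa5 in 7, Eprs in 6 and Lars in 4.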

How the results depend on the processing

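No median and no called difference of the members changed sign under any alternative run. Slc7a11 in non-β-cells (0.17, not tested) stood at -0.11 with both 4-week samples numbered 3 left out. All 10 members were also lower there with quality weights, without replicate 3 of the 4-week non-β-cells and with the length trend removed. Aldh1l2 in β-cells (-0.02, not called) stood at 0.11 and 0.09 without replicate 1 or 2 of the 4-week β-cells. The members' median log2 age difference in non-β-cells (-1.71) was -1.75 with total counts only, -1.62 with quality weights, -1.61 with both 4-week samples numbered 3 left out and -1.77 with the length trend removed; in β-cells (-0.60) these were -0.63, -0.54, -0.54 and -0.64, and the median difference between the fractions (0.93) was 0.87 with both samples left out. Requiring a 2-fold change as well left 0 of 8 members called in β-cells by limma. Genes called in β-cells numbered 2799, or 5382 with quality weights. Those called for the difference numbered 800, but 1562 with DESeq2, 2384 with quality weights, 1455 with both samples left out and 1247 with the length trend removed; the cause was not tested. Removing the length trend moved the median of all genes between fractions by 0.14, and the calls from 1813 higher and 748 lower to 1854 and 1791 in non-β-cells, from 1340 and 1459 to 1335 and 2567 in β-cells, and from 4839 and 4911 to 6243 and 4212 between fractions.

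Leaving out each sample in turn gave medians of -1.76 to -1.61 in non-β-cells, -0.68 to -0.54 in β-cells, 0.87 to 0.98 for the difference and 0.96 to 1.05 between fractions, with 1684 to 3114 genes called in β-cells and 450 to 984 for the difference. Without replicate 1, 2 or 3 of the 8-week β-cells, 1717, 1701 and 1684 genes were called in β-cells and 480, 450 and 463 for the difference, which was 500 without replicate 1 of the 4-week and 498 without replicate 3 of the 8-week non-β-cells. These fits have fewer samples.

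The labels number the replicates from 1 to 3 in every group. Deviations from the group means of same-numbered samples correlated at 0.08, 0.13 and 0.31 between the fractions at 4 weeks, at 0.01 to 0.05 at 8 weeks and at -0.01 to 0.12 between ages, so the pairing is not established. A block by number gave 1879 genes called for the difference. Slc7a11, at 0.963 to 9.68 CPM, is the member that depth limits most.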
